A study of Homo sapiens with 30 samples.

Results

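The response to androgen was compared between LNCaP cells whose mTOR was directed to the nucleus and LNCaP cells that received an empty vector. The comparison used 18 of the 30 samples of the series and asked, for every gene, whether the change under the androgen R1881 differed between these cells. LNCaP is a prostate cancer cell line of human origin, in long use, whose growth needs androgen. All 18 samples carried an shRNA against mTOR, and an inducible system then supplied mTOR with a nuclear localization signal (NLS), the same nuclear mTOR with the kinase-dead change D2357E (NLSKD), or the empty vector (EV). Before treatment, androgen was withdrawn for 48 h by growth in 2% charcoal-stripped serum. They then received 10 nM R1881, a synthetic androgen, or ethanol vehicle for 24 h, with 3 samples for each of the 6 groups. The nuclear response is the mean of the NLS and NLSKD changes (R1881 over vehicle, log2), and the difference reported throughout is the nuclear response minus the EV response. Wild-type mTOR (WT) and mTOR with a nuclear export signal (NES), with 6 samples each, were set beside it. The labels name triplicates without saying whether they were separate cultures, so the spread behind every p-value may be technical. The NLS and NLSKD lines share the same EV samples, and the labels do not say whether a line is a pool of cells or a clone.

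Androgen is a steroid that enters the cell and changes transcription, and it raises secretory and metabolic genes of the luminal prostate cell and lowers others. mTOR is the kinase at the centre of the mTOR complexes, which tie cell growth, protein and lipid synthesis to nutrients and growth factors, and it is mostly cytoplasmic. Androgen-treated prostate cancer cells are known for induction of kallikreins, of FKBP5 and of lipid synthesis, and for repression of glucuronosyltransferases that conjugate androgens.

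The 18 libraries held 21.7 to 39.5 M counts. Mitochondrially encoded genes took 3.90% to 11.7% of the counts, and 4 libraries exceeded 9%: NLS with R1881 replicate 2, NLS with vehicle replicate 2, NLSKD with vehicle replicate 2 and EV with vehicle replicate 3. Luminal markers were abundant, with KRT8 at 360.4 to 1619 CPM (counts per library total, used for the marker levels) and EPCAM at 117 to 157 CPM in the 18 libraries. Of 10 basal markers, 1 averaged at least 1 CPM and 2, KRT5 and TP63, had no count, and their summed level was 1.81 to 6.16 CPM in the nuclear lines and 3.55 to 6.72 CPM in EV. Of 15 mesenchymal markers, 7 averaged at least 1 CPM, among them VIM (3.96 to 21.4 CPM) and COL1A1 (9.17 to 21.6 CPM). Their sum was 153.8 to 289.0 CPM in the nuclear lines and 138.3 to 265.9 CPM in EV. Of 15 neuroendocrine markers, 3 averaged at least 1 CPM, among them SYP (0.367 to 3.15 CPM), and INSM1 had 1 count in all. The neuroendocrine sum was 28.2 to 74.7 CPM in the nuclear lines and 20.8 to 52.0 CPM in EV. None of 8 leukocyte markers averaged 1 CPM, and 2 of them had no count, CD3E included. Their summed level ran from 0.0460 to 0.543 CPM in the nuclear lines and from 0.0377 to 0.449 CPM in EV. The part of such RNA in the results was not tested.

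MTOR (chromosome 1, 11106535 to 11262507, hg38) was measured first, as the knocked-down and rescued gene, in CPM scaled by TMM as for all genes from here on. In NLS it stood at 1340.0, 637 and 1133 CPM with R1881 and at 1070.0, 596 and 1123 CPM with vehicle. In NLSKD it stood at 1456, 727 and 1064 CPM with R1881 and at 1483, 647 and 918 CPM with vehicle. EV had 68.8, 55.4 and 73.9 CPM with R1881 and 27.1, 20.3 and 29.8 CPM with vehicle. Each nuclear library was above every EV library, and replicate 2 was the lowest of the 3 in every group. Within EV the R1881 and vehicle libraries did not overlap. The MTOR response was 0.12 ± 0.23 in the nuclear lines (edgeR quasi-likelihood, adjusted p = 0.888). In EV it was 1.36 ± 0.33 and passed its own test (edgeR quasi-likelihood, adjusted p = 0.00786). The difference of −1.24 ± 0.40 did not pass the test (edgeR quasi-likelihood, adjusted p = 0.534). Counts per gene do not tell RNA of the supplied MTOR from that of the cell's own gene.

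Of 18296 genes tested, 10 differed in their androgen response between the nuclear lines and EV at a Benjamini-Hochberg adjusted p under 0.05 (0.0547% of genes), 8 higher (0.0437%) and 2 lower (0.0109%), and 8 of them are described here. ACKR3, UGT2B17, SERPINI1, DDC and VWF fell under R1881 in EV and fell less in the nuclear lines. CRISPLD2 and ACAD8 rose in both and rose less in the nuclear lines. ARHGEF26 passed its own test of a rise in the nuclear lines, while its response in EV was negative (−0.46 ± 0.17) and did not pass. The response itself was broad in both: R1881 raised 940 genes (5.14%) and lowered 739 (4.04%) in the nuclear lines, and raised 833 (4.55%) and lowered 833 (4.55%) in EV. An unadjusted p under 0.05 was found for 884 genes, 4.83% of those tested. That share is no larger than the threshold of 0.05 would give on average if no gene differed. Among 11090 genes with a mean of at least 5 CPM, the central 95% of differences lay between −0.48 and 0.69 and 100 genes (0.902%) differed by more than 1 in either direction. The median standard error of these differences was 0.29. The spread between samples was estimated from all 30 libraries. In a fit to the 18 libraries alone no gene was called, the lowest adjusted p being 0.0524, with 676 genes at an unadjusted p under 0.05. When each of the 18 libraries was left out in turn, ACKR3 stayed called in all 18 fits, UGT2B17 and CRISPLD2 in 17, SERPINI1 in 15, VWF and ACAD8 in 8, and ARHGEF26 and DDC in 3. Without EV with vehicle replicate 1, ACKR3 was the 1 gene called. Without the libraries above 9% mitochondrial counts 7 genes were called, and 6 of them were among the 10, with VWF, ACAD8, ARHGEF26 and DDC no longer called.

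**Figure D1:**
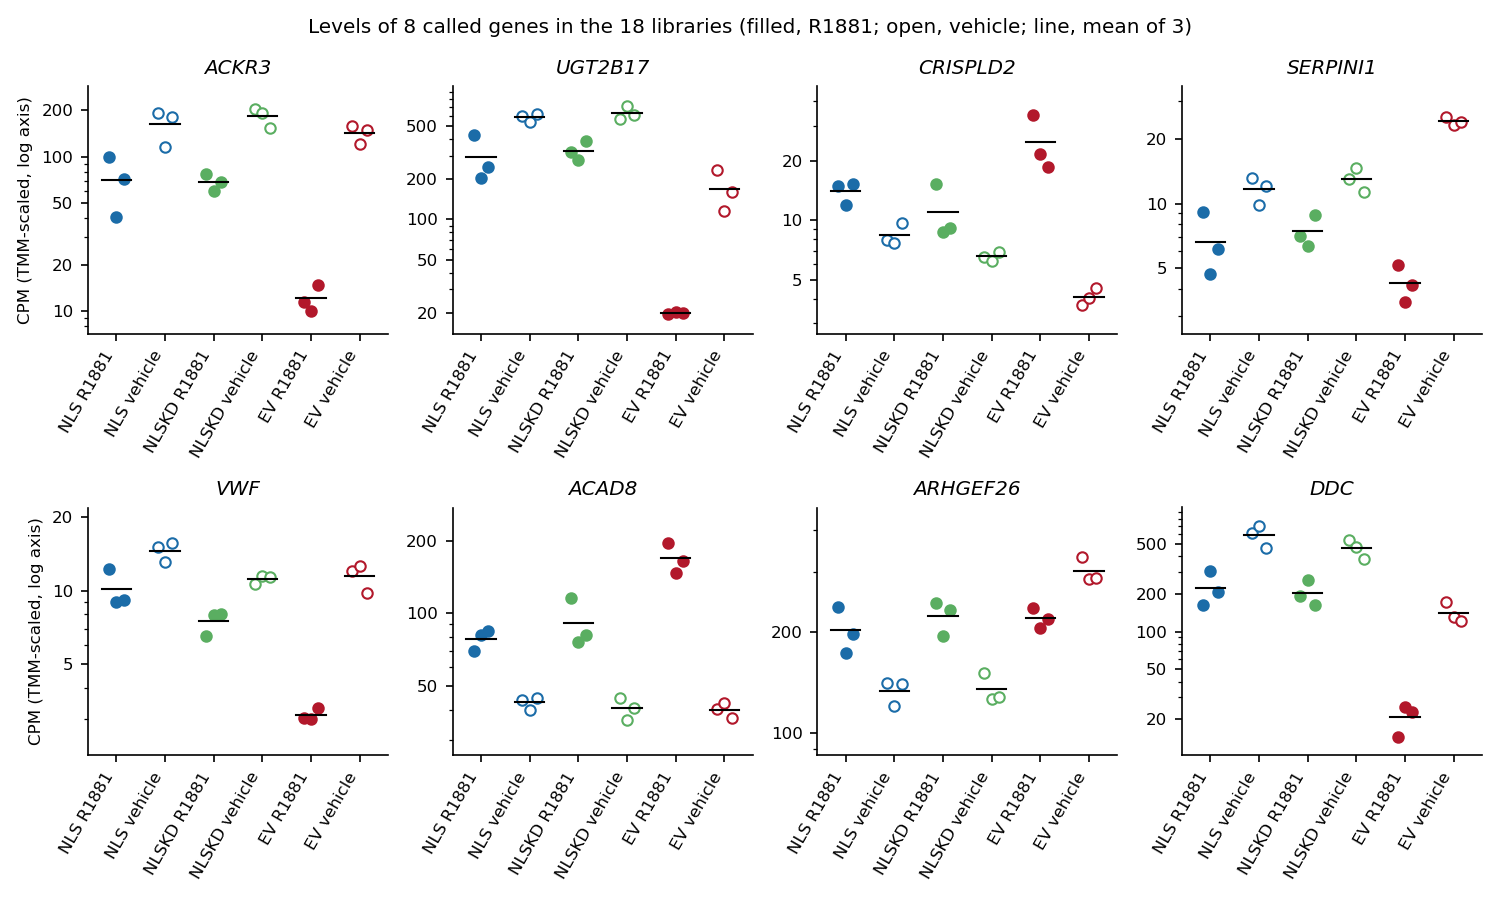
Level of 8 called genes in the 18 libraries, in CPM on a log axis, by line and treatment; each point is a library and each line the mean of 3. EV with R1881 (filled, right) lies below all nuclear R1881 libraries for ACKR3, UGT2B17, VWF and DDC and above them for CRISPLD2 and ACAD8.

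Among the described genes lowered by androgen, ACKR3 (chromosome 2, 236567787 to 236582358) had the largest difference. It encodes an atypical chemokine receptor that takes up CXCL12. Its level in NLS was 99.5, 40.5 and 71.9 CPM with R1881 and 193, 115 and 183 CPM with vehicle. NLSKD had 77.4, 60.2 and 69.1 CPM with R1881 and 206, 192 and 155 CPM with vehicle. EV had 11.4, 9.99 and 14.8 CPM with R1881 and 159, 122 and 148 CPM with vehicle. The vehicle libraries of the 3 lines overlapped, and under R1881 every EV library was below every nuclear library. ACKR3 fell by 1.31 ± 0.17 on the log2 scale in the nuclear lines and by 3.57 ± 0.27 in EV, a difference of 2.25 ± 0.30 (95% interval 1.63 to 2.88, edgeR adjusted p = 0.00154).

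UGT2B17 (chromosome 4, 68537184 to 68568527) encodes a glucuronosyltransferase that conjugates and inactivates androgens. It stood at 429.6, 206 and 248 CPM with R1881 and at 597, 535 and 617 CPM with vehicle in NLS. It stood at 318, 279.6 and 384 CPM with R1881 and at 562, 714 and 605 CPM with vehicle in NLSKD. EV libraries held 19.6, 20.3 and 19.8 CPM with R1881 and 236, 116 and 159.5 CPM with vehicle. Nuclear libraries were above EV libraries under both treatments, and the gap was wider under R1881. The level difference was 3.96 ± 0.28 under R1881 and 1.83 ± 0.25 under vehicle, so that the response differed by 2.14 ± 0.32 (edgeR adjusted p = 0.00464). Its near copies UGT2B15 and UGT2B28 can share reads with it, and the setting for reads with several matches is not given in the sources used here. UGT2B15 differed by 2.12 ± 0.58, with a wider error (adjusted p = 0.267), and UGT2B28, which rose under R1881 in both, by 0.37 ± 0.79 (adjusted p = 1.0).

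DDC (chromosome 7, 50458436 to 50565457) encodes aromatic L-amino acid decarboxylase, which makes dopamine and serotonin. Levels in NLS were 163.5, 303 and 207 CPM with R1881 and 608, 700.5 and 463 CPM with vehicle. Levels in NLSKD were 194, 258 and 162 CPM with R1881 and 536, 477 and 380.5 CPM with vehicle. In EV they were 14.5, 25.1 and 23.0 CPM with R1881 and 172, 132 and 123 CPM with vehicle. As with UGT2B17, the lines were apart under vehicle as well: DDC was higher in the nuclear lines by 3.36 ± 0.24 under R1881 and by 1.88 ± 0.22 under vehicle. The response differed by 1.48 ± 0.28 (edgeR adjusted p = 0.0426).

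SERPINI1 (chromosome 3, 167735243 to 167825568) encodes neuroserpin, a secreted inhibitor of serine proteases. NLS had 9.13, 4.69 and 6.13 CPM with R1881 and 13.2, 9.84 and 12.1 CPM with vehicle. NLSKD had 7.08, 6.34 and 8.84 CPM with R1881 and 13.1, 14.7 and 11.4 CPM with vehicle. EV had 5.17, 3.46 and 4.18 CPM with R1881 and 25.3, 23.4 and 24.1 CPM with vehicle. Here the order of the lines turned: nuclear levels were lower than EV under vehicle (−0.97 ± 0.19) and higher under R1881 (0.72 ± 0.21), where the libraries overlapped. The response difference was 1.69 ± 0.28 (edgeR adjusted p = 0.0116).

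VWF (chromosome 12, 5948874 to 6124770) encodes von Willebrand factor, a clotting protein usually made by endothelial cells and megakaryocytes. It was a low gene here, at 12.3, 8.95 and 9.16 CPM with R1881 and 15.03, 13.1 and 15.6 CPM with vehicle in NLS. NLSKD held 6.54, 7.92 and 8.05 CPM with R1881 and 10.7, 11.5 and 11.4 CPM with vehicle. EV held 3.03, 2.98 and 3.33 CPM with R1881 and 12.04, 12.7 and 9.77 CPM with vehicle. EV and nuclear libraries overlapped under vehicle and were apart under R1881. The response differed by 1.33 ± 0.24 (edgeR adjusted p = 0.0283). On log2(FPKM + 1), a scale that compresses low genes, it was 0.40 and was not called.

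ARHGEF26 (chromosome 3, 154121003 to 154257827), set apart by its vehicle level, encodes a guanine nucleotide exchange factor for the small GTPase RhoG. NLS had 236, 173.5 and 197 CPM with R1881 and 141, 121 and 140.3 CPM with vehicle. NLSKD had 243, 194 and 231 CPM with R1881 and 151, 126 and 128 CPM with vehicle. EV had 235, 205 and 217.5 CPM with R1881 and 333, 286 and 289 CPM with vehicle. The lines overlapped under R1881 and were apart under vehicle. Within EV every R1881 library was below every vehicle library. ARHGEF26 rose by 0.66 ± 0.12 in the nuclear lines, the EV response of −0.46 ± 0.17 did not pass the test, and the difference was 1.12 ± 0.21 (edgeR adjusted p = 0.0403). It also rose in WT, by 0.64 ± 0.17 (adjusted p = 0.0220), and the nuclear response minus the WT response was 0.02 ± 0.21.

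CRISPLD2 (chromosome 16, 84819984 to 84920768), which encodes a secreted protein that binds lipopolysaccharide, and ACAD8 (chromosome 11, 134253495 to 134265855), the mitochondrial isobutyryl-CoA dehydrogenase of valine breakdown, were the 2 called genes with a smaller rise in the nuclear lines. CRISPLD2 had 14.8, 11.9 and 15.2 CPM with R1881 and 7.96, 7.64 and 9.71 CPM with vehicle in NLS. In NLSKD it had 15.2, 8.69 and 9.11 CPM with R1881 and 6.49, 6.22 and 6.92 CPM with vehicle. EV libraries held 34.1, 21.6 and 18.6 CPM with R1881 and 3.73, 4.02 and 4.51 CPM with vehicle. Nuclear libraries were below all EV libraries under R1881 and above all of them under vehicle. CRISPLD2 rose by 0.74 ± 0.16 in the nuclear lines and by 2.60 ± 0.24 in EV, a difference of −1.86 ± 0.29 (edgeR adjusted p = 0.00464).

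ACAD8 held 69.9, 81.2 and 84.3 CPM with R1881 and 44.0, 39.96 and 44.6 CPM with vehicle in NLS. It held 116, 76.4 and 81.7 CPM with R1881 and 44.5, 36.4 and 40.8 CPM with vehicle in NLSKD. EV had 196, 148 and 165 CPM with R1881 and 40.2, 42.8 and 37.0 CPM with vehicle. The lines overlapped under vehicle, and under R1881 every EV library was above every nuclear library. ACAD8 rose by 1.02 ± 0.11 in the nuclear lines and by 2.08 ± 0.17 in EV, and the difference was −1.06 ± 0.20 (edgeR adjusted p = 0.0353).

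**Figure D2:**
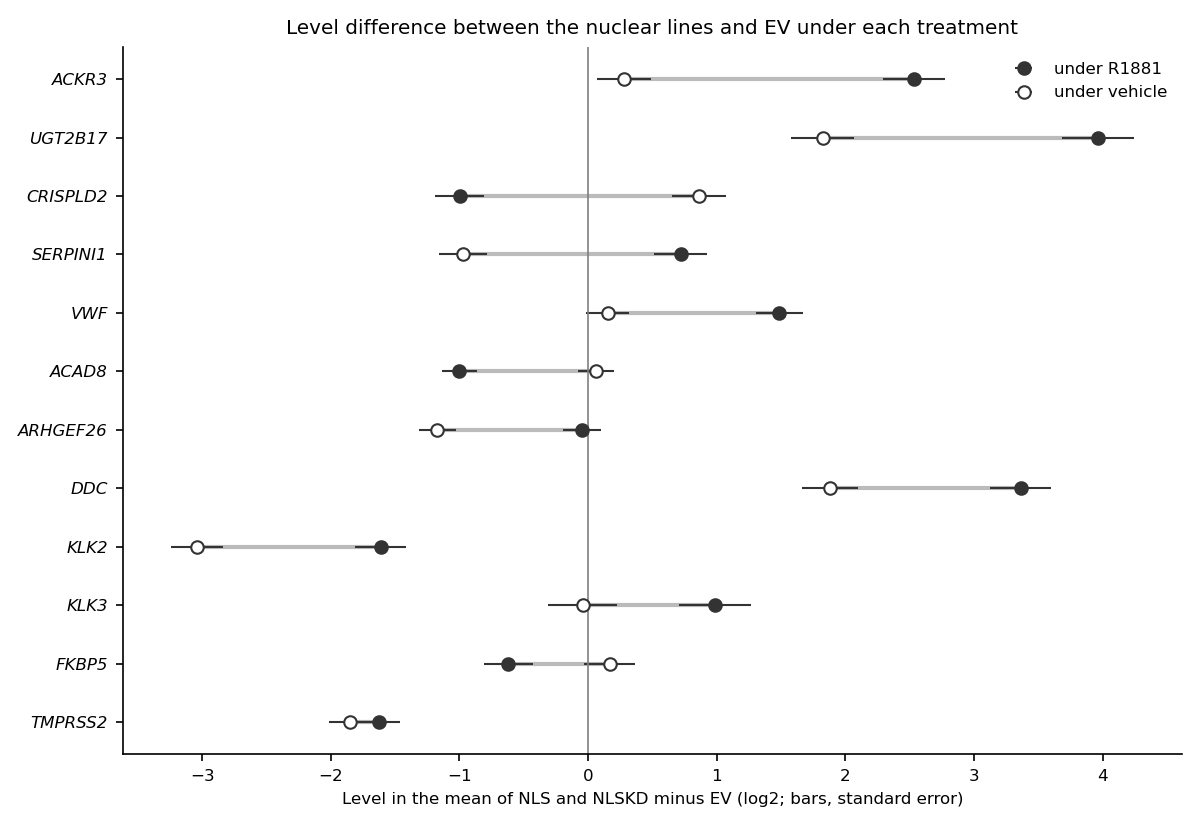
Level of the mean of NLS and NLSKD minus EV (log2, x axis) under R1881 (filled) and under vehicle (open), with standard errors, for 8 called genes and 4 androgen-induced genes; the length of each grey bar is the response difference. For ACKR3, VWF and ACAD8 the vehicle point lies near 0, for ARHGEF26 the R1881 point does, and TMPRSS2 is low under both treatments.

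The sequences before the starts of CRISPLD2 and ACAD8, which rose less, and of SERPINI1, which fell less, are shown because these genes moved in opposite directions. RefSeq starts need not be the gene starts given above. The SERPINI1 window lies within its gene span, and the ACAD8 window reaches into its own. Each line holds the 250 bases before the start, 5′ to 3′ on the + strand of the gene (RefSeq, GRCh38.p14), with capitals at a GC box (GGGCGG, either strand).
CRISPLD2, chr16:84819735-84819984: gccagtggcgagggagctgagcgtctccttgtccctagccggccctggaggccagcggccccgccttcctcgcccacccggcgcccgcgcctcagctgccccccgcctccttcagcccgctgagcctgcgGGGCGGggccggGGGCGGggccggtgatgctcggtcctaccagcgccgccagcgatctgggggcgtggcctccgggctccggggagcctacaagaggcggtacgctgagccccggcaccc
ACAD8, chr11:134253318-134253567: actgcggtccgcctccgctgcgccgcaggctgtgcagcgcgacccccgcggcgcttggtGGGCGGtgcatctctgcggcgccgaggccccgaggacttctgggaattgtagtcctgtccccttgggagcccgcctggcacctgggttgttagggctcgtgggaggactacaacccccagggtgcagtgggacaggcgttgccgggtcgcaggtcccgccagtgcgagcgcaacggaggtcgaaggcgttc
SERPINI1, chr3:167735471-167735720: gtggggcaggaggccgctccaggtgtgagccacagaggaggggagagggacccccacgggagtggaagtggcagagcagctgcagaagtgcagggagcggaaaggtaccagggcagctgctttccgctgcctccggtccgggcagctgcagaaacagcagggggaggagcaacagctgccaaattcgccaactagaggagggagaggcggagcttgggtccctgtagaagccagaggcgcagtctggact
CRISPLD2 holds 2 GC boxes, ACAD8 1 and SERPINI1 0. Windows of 300 bases, 250 before and 50 after the start, were listed for 5 of the 10 called genes (7 starts, with 2 each for ARHGEF26 and DDC). The androgen response element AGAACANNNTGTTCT was found in 0 of these 7 windows and in 0 of 16365 windows of tested genes. Its arm TGTTCT, which lies within that element, was found in 0 of the 7 and in 10.0% of all windows, and the GC box in 3 of the 7 and in 64.0% of all. GC boxes lay in 2 of 2 windows of genes called lower and in 1 of 5 of genes called higher. That 1 window, at a start of ARHGEF26, is not shown and holds 3 GC boxes in its 250 bases before the start, more than CRISPLD2 or ACAD8. The TATA box TATAAA was found in 1 of the 7, at ARHGEF26, and in 6.58% of all windows. A match is a match of letters on either strand only.

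The rescues were then taken singly. NLS differed from EV in 3 genes (0.0164%) and NLSKD in 3 (0.0164%), in both cases ACKR3, UGT2B17 and CRISPLD2. ACKR3 differed from EV by 2.36 ± 0.35 in NLS and by 2.15 ± 0.35 in NLSKD. UGT2B17 differed by 2.11 ± 0.37 in NLS and by 2.16 ± 0.37 in NLSKD, and CRISPLD2 by −1.87 ± 0.33 in NLS and by −1.85 ± 0.33 in NLSKD. All 8 genes had the same sign in each line alone with an unadjusted p under 0.05. They were chosen on the mean of these same lines, and both lines were set against the same EV libraries. The shared sign is therefore no separate evidence.

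A direct test of NLSKD against NLS, which uses no EV library, bears on the kinase-dead change. It called 0 of 18296 genes by edgeR (0.0%), with 147 at an unadjusted p under 0.05, and 0 by DESeq2. Over the 8 genes NLSKD minus NLS ran from −0.21 to 0.30, and the lowest unadjusted p was 0.201. For ACKR3 the 95% interval of this difference was −0.91 to 0.50, so a difference of moderate size between the kinase-dead and the active form was not detectable at this spread.

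**Figure D3:**
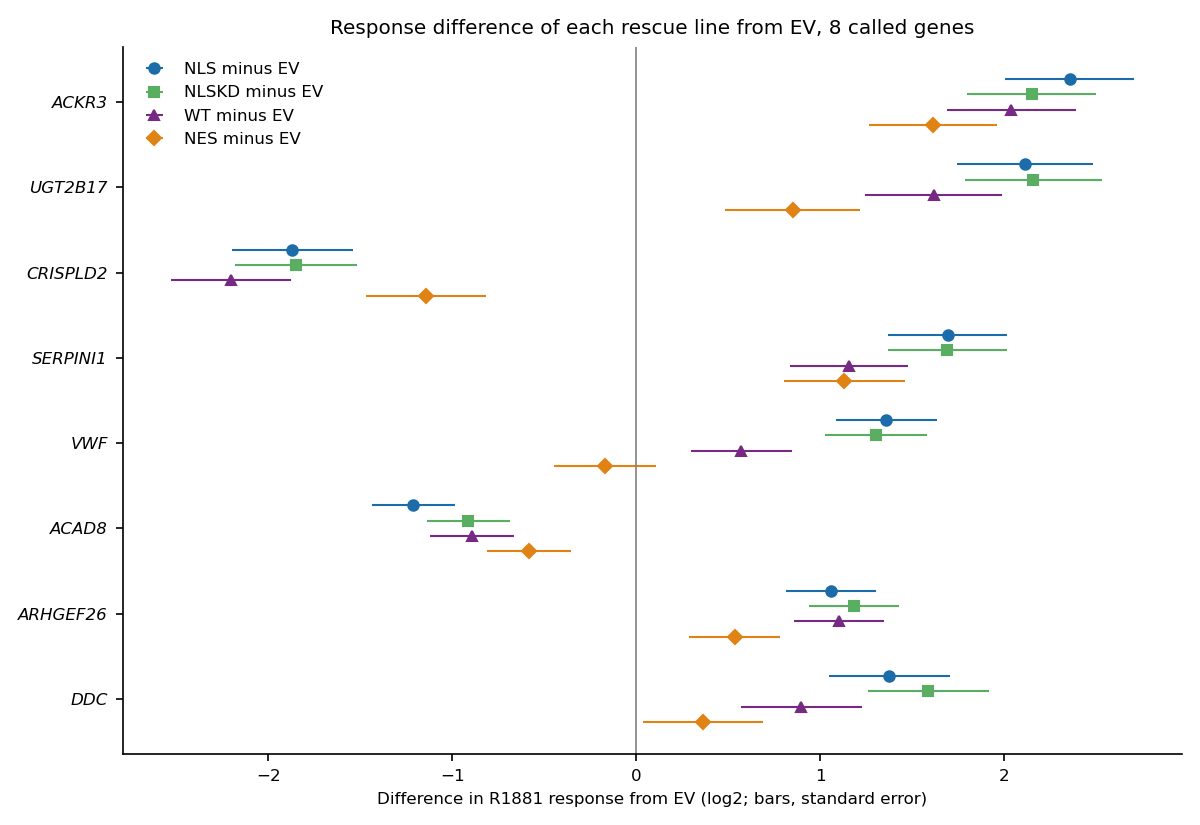
Difference in R1881 response from EV (log2, x axis, with standard error) of NLS, NLSKD, WT and NES for 8 called genes; all 4 lines share the EV libraries. NLS and NLSKD lie within 0.30 of each other for every gene, and NES lies nearest to 0 for each of the 8, although only VWF passed the test of the nuclear lines against NES.

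Whether the difference from EV was particular to the nuclear lines was tested against WT and NES directly. These lines also differed in MTOR level. Its mean was 4296 CPM with R1881 and 5252 CPM with vehicle in NES, and 1603 and 1840 CPM in WT. In NLS it was 1037 and 930 CPM, and in NLSKD 1082 and 1016 CPM. The place of mTOR and the amount of its RNA cannot be told apart in these comparisons. Against WT, 0 genes were called by edgeR (0.0%, with 400 at an unadjusted p under 0.05) and 1 by DESeq2. Against NES 1 gene was called (0.00547%, with 561 at an unadjusted p under 0.05). That gene was VWF, whose response was −0.55 ± 0.14 in the nuclear lines, −2.05 ± 0.20 in NES and −1.31 ± 0.19 in WT. It differed from NES by 1.501 ± 0.24 (edgeR adjusted p = 0.0216) and from WT by 0.76 ± 0.23 (adjusted p = 1.0). The call against NES was lost in the fit to the NLS, NLSKD and NES libraries alone and in 11 of the 18 fits that left out 1 of these libraries. Of the 8 genes, 7 had an unadjusted p under 0.05 against NES and 2 against WT. DDC differed from NES by 1.12 ± 0.28, not past the adjusted threshold (adjusted p = 0.764).

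The responses of WT and NES minus that of EV used the same EV libraries and are given side by side only. WT minus EV called 8 genes (0.0437%) and NES minus EV called 0 (0.0%, with 490 at an unadjusted p under 0.05). ACKR3 differed from EV by 2.25 ± 0.30 in the nuclear lines, 2.04 ± 0.35 in WT and 1.61 ± 0.35 in NES. CRISPLD2 differed by −1.86 ± 0.29 in the nuclear lines, −2.20 ± 0.33 in WT and −1.14 ± 0.33 in NES. IGFBP3, a secreted carrier of insulin-like growth factors and one of the WT calls, differed by 1.49 ± 0.37 in the nuclear lines (adjusted p = 0.203) and by 2.51 ± 0.43 in WT (adjusted p = 0.0142).

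The classical androgen targets KLK2, KLK3, FKBP5 and TMPRSS2 gave a mixed picture, and none of these 4 passed the test in the fit to all 30 libraries. KLK2, a kallikrein protease, stood at 217, 295 and 269 CPM with R1881 and at 8.17, 16.9 and 10.9 CPM with vehicle in NLS. In NLSKD it stood at 303, 222 and 255 CPM with R1881 and at 12.7, 6.92 and 7.59 CPM with vehicle. EV had 837, 703 and 846 CPM with R1881 and 78.2, 119 and 59.9 CPM with vehicle. It was lower in the nuclear lines under both treatments (level difference −1.61 ± 0.20 under R1881 and −3.04 ± 0.20 under vehicle), and the response difference of 1.43 ± 0.29 lay just outside the threshold (edgeR adjusted p = 0.0608). KLK2 was called in 8 of 29 alternatives, among them DESeq2 (adjusted p = 0.00407) and the fit without the libraries above 9% mitochondrial counts (edgeR adjusted p = 0.00666). KLK3, which encodes PSA and whose reads can be shared with KLK2, differed by 1.03 ± 0.38 (adjusted p = 0.778).

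FKBP5, a co-chaperone of steroid receptors, had a response difference of −0.79 ± 0.28 (adjusted p = 0.668). TMPRSS2, a membrane protease, had a level in the nuclear lines minus EV of −1.62 ± 0.16 under R1881 and −1.85 ± 0.16 under vehicle. Its response difference was 0.22 ± 0.24, with a 95% interval of −0.27 to 0.72. A level that differed between the lines thus did not go with a detectable difference in response. In all, 1637 genes (8.95%) differed in level between the nuclear lines and EV under R1881 and 1214 (6.64%) under vehicle.

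Among the genes just inside the threshold were DDC (adjusted p = 0.0426) and ARHGEF26 (adjusted p = 0.0403). Among the genes just outside it were IL36RN, an interleukin-36 receptor antagonist (1.49 ± 0.29, adjusted p = 0.0501), FAM13A (1.10 ± 0.22, adjusted p = 0.0538), PLPP1, a lipid phosphatase (−0.95 ± 0.20, adjusted p = 0.0704), and ERRFI1, a feedback inhibitor of the EGF receptor (−1.34 ± 0.28, adjusted p = 0.0716). PLPP1 rose by 1.89 ± 0.12 in the nuclear lines and by 2.84 ± 0.17 in EV, and ERRFI1 by 1.93 ± 0.17 in the nuclear lines and by 3.27 ± 0.25 in EV. Under vehicle the level of IL36RN in the nuclear lines minus EV was −2.35 ± 0.19 and that of FAM13A was −1.22 ± 0.15.

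To describe the size of the androgen response with genes chosen on other libraries, the genes called in both WT and NES were followed. Of 512 genes that rose in both, the median response was 1.28 in the nuclear lines and 1.52 in EV, and the median difference was −0.23. The nuclear response was the smaller in 361 of them (70.5%). Of 434 genes that fell in both, the median response was −1.001 in the nuclear lines and −1.37 in EV, and the median difference was 0.34. The fall was the smaller in the nuclear lines in 328 of them (75.6%). The nuclear response had the WT and NES sign in all 512 and all 434, and the EV response in 511 and 431. Over all genes tested the median difference was 0.05. These counts describe these libraries and carry no test, because genes are not replicates and share the same 18 samples.

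**Figure D4:**
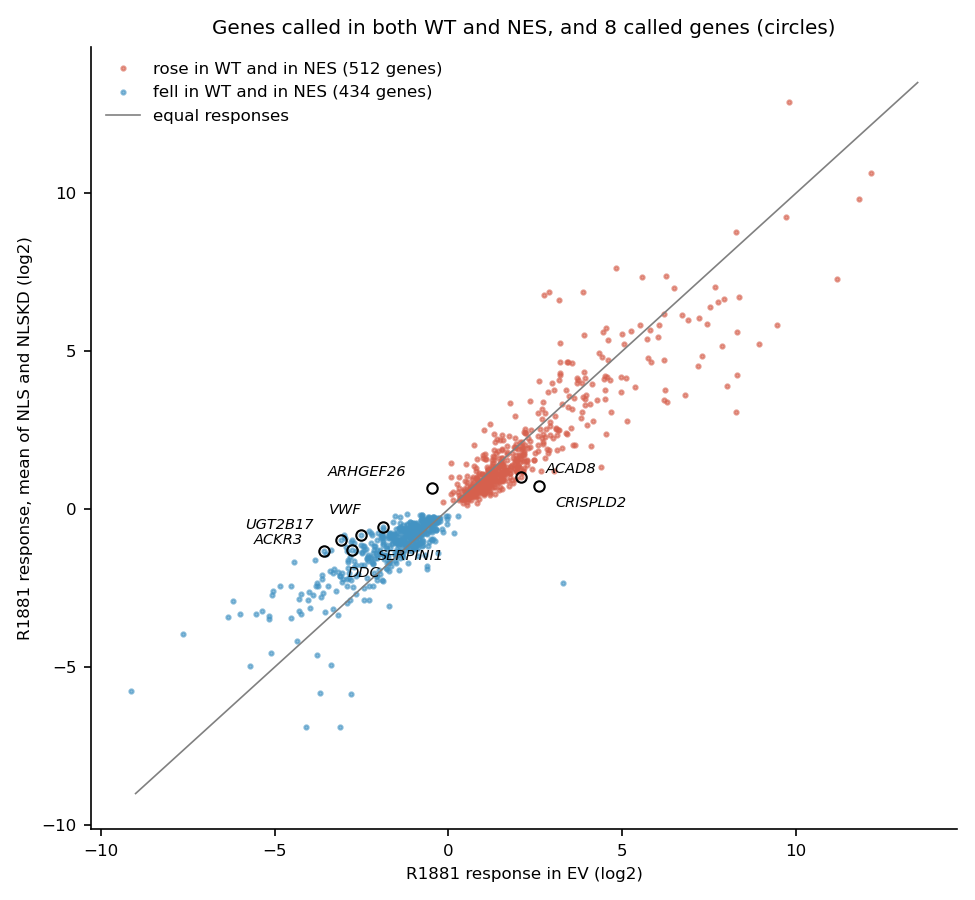
R1881 response (log2) in EV (x axis) against the mean of NLS and NLSKD (y axis) for 512 genes that rose and 434 that fell in both WT and NES, with 8 called genes circled; the grey line marks equal responses. Most genes that fell lie above the line and most that rose lie below it, 75.6% and 70.5%.

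The gene lists put this in order by role. Over all 18296 genes tested, 10334 had a positive and 7961 a negative difference, with 8 called higher and 2 lower. The lists were chosen with earlier results of these data known. Genes of a list share the same 18 samples, so counts of sign carry no test. Of 15 tested genes on a list of androgen-repressed genes, 3 were called higher (ACKR3, UGT2B17 and DDC), 13 had a positive difference and the median difference was 1.36, against 0.05 for all genes. BCHE, butyrylcholinesterase, had 119.7, 43.5 and 51.2 CPM in NLS and 91.1, 56.8 and 66.6 CPM in NLSKD with R1881, against 14.4, 15.4 and 15.3 CPM in EV with R1881. Its response difference of 1.67 ± 0.55 did not pass the test (adjusted p = 0.534). OPRK1, the kappa opioid receptor, fell by 2.67 ± 0.23 in the nuclear lines and by 4.25 ± 0.36 in EV, a difference of 1.57 ± 0.39 (adjusted p = 0.203). R1881 lowered 7 of the 15 and raised 4 in the nuclear lines, and lowered 8 and raised 3 in EV, with UGT2B28 raised in both.

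The androgen-induced list ran the other way in its median. Of its 79 tested genes 0 were called, 49 had a negative difference, and the median was −0.20. R1881 raised 61 of them in the nuclear lines (median response 1.37) and 59 in EV (median response 1.69). SAT1, which acetylates polyamines, rose by 1.17 ± 0.19 in the nuclear lines and by 2.12 ± 0.27 in EV (difference −0.95 ± 0.32, adjusted p = 0.590). ODC1, ornithine decarboxylase, the first enzyme of polyamine synthesis, rose by 0.72 ± 0.15 in the nuclear lines and by 1.75 ± 0.21 in EV (difference −1.03 ± 0.26, adjusted p = 0.203). B2M, the light chain of MHC class I, rose by 0.91 ± 0.14 in the nuclear lines and by 1.82 ± 0.20 in EV (difference −0.91 ± 0.23, adjusted p = 0.204).

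Lipid synthesis genes had small differences of mostly negative sign. Of 23 cholesterol synthesis genes 0 were called, 20 had a negative difference and the median was −0.25. FDFT1, squalene synthase, rose by 0.92 ± 0.14 in the nuclear lines and by 1.501 ± 0.19 in EV (difference −0.58 ± 0.23, adjusted p = 0.878). Of 17 fatty acid synthesis genes 0 were called and 14 had a negative difference, with a median of −0.20. FASN, fatty acid synthase, rose by 0.87 ± 0.14 in the nuclear lines and by 1.37 ± 0.20 in EV.

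Cell cycle genes had the most uniform sign. Of 36 genes of G1/S and DNA replication 0 were called and 34 had a positive difference, with a median of 0.44. R1881 raised 10 of them in the nuclear lines and 1 in EV, where 5.14% of all genes were raised in the nuclear lines and 4.55% in EV. The nuclear response rests on 12 libraries and the EV response on 6, and the difference between these 2 counts was not tested. MCM4, a subunit of the replicative helicase, stood at 99.9, 93.7 and 124 CPM in NLS and 90.0, 111 and 96.5 CPM in NLSKD with R1881, against 63.7, 68.2 and 74.7 CPM in EV with R1881. Every nuclear library was above every EV library under R1881, and under vehicle the lines overlapped. Its response difference was 0.68 ± 0.20 (adjusted p = 0.427). MCM3, of the same helicase, differed by 0.61 ± 0.16 (adjusted p = 0.263) and CDC6, a helicase loader, by 0.72 ± 0.27 (adjusted p = 0.821).

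Of 34 genes of G2/M and mitosis 0 were called and 34 had a positive difference, with a median of 0.54. Among all 18296 genes tested, 10334 were positive. The median was 0.71 in NLS and 0.38 in NLSKD, and NLSKD against NLS called no gene. TPX2, a spindle assembly factor, differed by 0.58 ± 0.26 (adjusted p = 0.987) and KIF11, the spindle motor Eg5, by 0.80 ± 0.37 (adjusted p = 1.0). Against WT the median difference of the nuclear lines was −0.08 for G1/S genes and −0.06 for G2/M genes, and against NES it was 0.04 for G1/S genes and 0.31 for G2/M genes, with no gene of either list called. In bulk RNA, more cycling cells and more RNA of these genes per cell cannot be told apart.

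Amino acid genes under ATF4 had a median difference of 0.18, with 0 of 42 called and 34 positive. PSPH, the last enzyme of serine synthesis, differed by 0.51 ± 0.15 (adjusted p = 0.425) and PSAT1, the enzyme before it, by 0.50 ± 0.22 (adjusted p = 0.985). Interferon response genes had a median of 0.26, with 0 of 35 called and 25 positive, beside 10334 positive of all 18296 genes. Luminal markers had a median of −0.09, with 0 of 13 called. FOLH1, which encodes PSMA, fell by 0.68 ± 0.12 in the nuclear lines and by 1.37 ± 0.17 in EV (difference 0.69 ± 0.20, adjusted p = 0.371). Ribosomal protein genes (0 of 41 called, median 0.04), oxidative phosphorylation (0 of 34, median −0.03), lysosome and autophagy (0 of 29, median 0.00), mitochondrially encoded genes (0 of 13, median 0.05) and heat shock genes (0 of 17, median 0.06) stood close to the median of all genes.

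**Figure D5:**
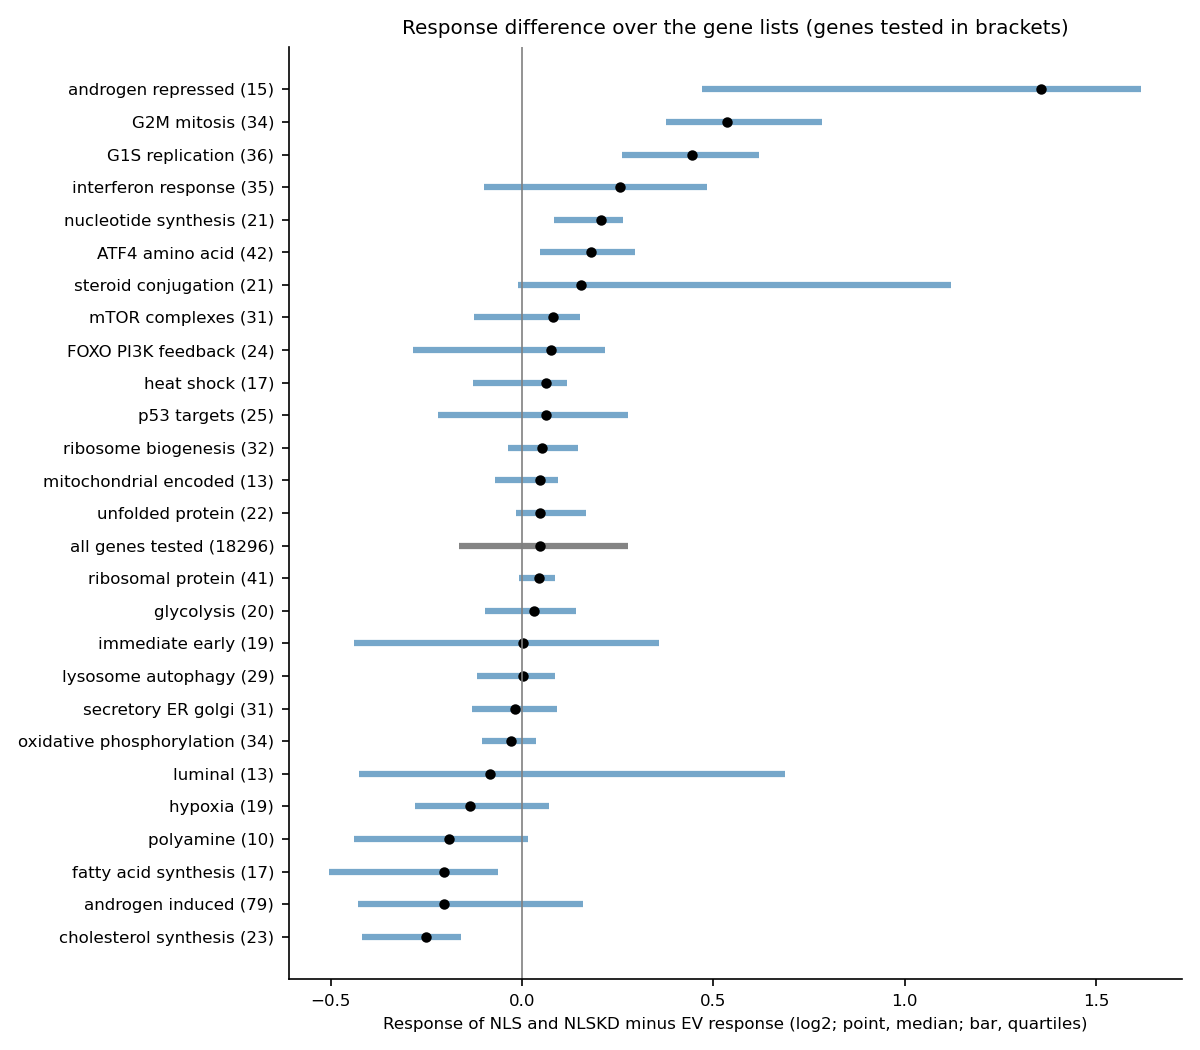
Response difference of the nuclear lines from EV (log2, x axis) over each gene list with at least 10 tested genes, ordered by median; points are medians, bars run from the lower to the upper quartile, and the number of genes tested is in brackets. Androgen-repressed genes have the highest median (1.36), followed by both cell cycle lists, and cholesterol synthesis the lowest (−0.25).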

How the data were processed

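RNA-seq of 30 LNCaP samples was used as the authors deposited it. The authors deposited raw read counts per gene and FPKM values (fragments scaled by gene length and depth) for 58735 genes, with the gene length in bases as another column, per the file headers. HISAT2 2.0.5, featureCounts 1.5.0-p3 and hg38 are named in the submitters' processing notes. Strand setting and handling of multi-mapping reads: neither is given in the sources used here, so genes with near copies or antisense partners are uncertain. Identifiers and coordinates were those of GENCODE 29.

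Counts were fitted in R 4.3.3 with edgeR 4.0.16 (TMM, filterByExpr, glmQLFTest, two-sided) over all 30 libraries with 10 group means, which left 18296 genes. The standard error is the log2 difference over the square root of F. Calls are at a Benjamini-Hochberg adjusted p under 0.05. CPM values are TMM-scaled, except those of the cell type markers, which are scaled to the library total. The script was tested on simulated data. Alternatives were DESeq2 1.42.0, its size factors, other filters, limma 3.58.1 on log2(FPKM + 1) and log2(FPKM + 0.1), a block for the replicate number, and libraries left out. No replicate pair agreed within sampling noise (chi-square over its degrees of freedom was at least 26.5).

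Genes were named if called, up to 12 by size and 6 by p in each direction and 4 per list, and MTOR, KLK3, KLK2, FKBP5 and TMPRSS2 were always named. The rule gave 13 genes, and the cell type markers came from lists apart from this rule. All other genes named were chosen after their values were seen. Results of 3 genes are not reported here, and these were left out of the gene lists. The comparison and the 30 gene lists were chosen with earlier results of these data known. The GC box and TATA box were added to the promoter search after the data were seen.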

Additional observations from a re-analysis of the deposited data

Results flagged for a closer look

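The following genes had an androgen response that differed between lines by a test of the difference itself. Between the nuclear lines and EV these were ACKR3 (2.25), UGT2B17 (2.14), CRISPLD2 (−1.86), SERPINI1 (1.69), VWF (1.33), ACAD8 (−1.06), ARHGEF26 (1.12) and DDC (1.48), each as a log2 difference of responses. Between the nuclear lines and NES it was VWF (1.501), a call lost in 11 of the 18 fits that left out 1 library.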

How the results depend on the processing

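Over 29 alternatives each of the 8 described genes kept its sign, and ACKR3 was called in 28, UGT2B17 in 27, CRISPLD2 in 27, SERPINI1 in 23, ACAD8 in 14, VWF in 12, DDC in 10 and ARHGEF26 in 8. Called genes for the nuclear lines minus EV numbered 55 with DESeq2 (31 higher, 24 lower), 49 with the replicate block (32 higher, 17 lower), 49 on log2(FPKM + 1) (21 higher, 28 lower), 46 with no filter on low counts, 16 with a minimum of 1 CPM in 3 libraries, 3 with NLS alone, 3 with NLSKD alone and 0 in the fit to the 18 libraries alone. Leaving out each library in turn gave 1 to 13 calls: 1 without EV vehicle 1 (ACKR3), 4 without EV vehicle 2, NLS vehicle 1, NLS vehicle 3 or EV R1881 1, 5 without EV R1881 2, EV R1881 3 or NLSKD R1881 3, and 6 without NLSKD vehicle 3. Without the libraries above 9% mitochondrial counts 7 genes were called, 6 of them among the 10. DESeq2 and the replicate block each called all 10. KLK2, not called in the fit to all 30 libraries, was called with the replicate block (adjusted p = 0.0181). The cause of these shifts was not tested. NLSKD minus NLS gave 4 calls with no filter, and 0 without any single library. Nuclear minus WT gave 1 with DESeq2, 12 with no filter and 0 without any single library. Nuclear minus NES gave 5 with DESeq2, 18 with no filter, 0 with the libraries of the lines compared and 0 to 1 without single libraries: 0 without NES R1881 1 or 3, any NES vehicle library, NLS vehicle 1 or 2, NLSKD R1881 2 or 3, or NLSKD vehicle 1 or 3. Replicate numbers carry no stated meaning. Deviations of same-numbered libraries correlated above 0.1 in 41 of 45 pairs, and those of differently numbered libraries in 18 of 90. In addition, 16 of 18 libraries correlated best with a library of their own number, a hint from the data and not the design. Among the 8 genes the difference smallest in size was that of ACAD8 (−1.06). The median standard error was 0.29 over all genes with at least 5 CPM. The 8 genes were chosen because they were called, so the ACAD8 value sets no limit of detection.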
